A study of Mus musculus with 4 samples.

Results

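Sox6, Prox1 and Tbx15 encode transcription factors that set the type of skeletal muscle fibers, and the open chromatin assigned to them was described in 4 mouse muscles. The members were all ATAC-seq peaks whose nearest transcription start site (TSS), in the annotation deposited with the peaks, belonged to 1 of the 3 genes. This gave 89 of 120839 peaks, 51 at Sox6, 6 at Prox1 and 32 at Tbx15. When peaks of different muscles that overlapped by at least 1 bp were joined, the 89 peaks formed 49 of 53883 regions, of which 28 belonged to Sox6, 3 to Prox1 and 18 to Tbx15. Regions are numbered here within each gene in the direction of transcription.

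ATAC-seq uses the Tn5 transposase to cut and tag accessible DNA, so that peaks of sequenced tags mark open chromatin. The muscles came from mice labelled as wild type C57BL/6, and the methods name male C57BL/6J animals with an age at purchase but not dissection. They were the extensor digitorum longus (EDL) and the quadriceps (Quad), both rich in fast glycolytic fibers, the soleus (Sol), rich in slow oxidative fibers, and the diaphragm (Dia), the trunk muscle of breathing. One library per muscle was analysed, labelled as pooled. A legend on these ATAC-seq data has 1 to 2 samples per group, and which lists combine 2 is not given in the sources used here. There was therefore no replicate error and no test between muscles, and each difference describes these libraries. The number of peaks was 21582 in Dia, 28784 in Sol, 30136 in EDL and 40337 in Quad, with an inferred depth between 78.1 M tags in Quad and 105 M in Sol. A region is called open in a muscle whose list held a peak there, and a missing peak means only that none was listed.

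SOX6 is a repressor that binds slow-fiber genes and keeps them off in fast fibers. TBX15 is a T-box factor that is enriched in fast glycolytic fibers and supports their number and glycolytic metabolism. PROX1 is a homeobox factor that acts with calcium-dependent signaling to maintain the slow program, and it is also the regulator that specifies lymphatic endothelial cells.

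Sequences are shown for the windows of 200 bp on which the comparisons turned, read from GRCm38.p6, the assembly behind mm10. At Sox6 these were intron region 24, scored higher in Sol than in Quad, and region 25, the highest-scored Sox6 region of a single list. At Prox1 they were the 2 distal regions listed in Sol alone, and at Tbx15 the regions around the promoter and in intron 1 where the lists of EDL and Quad were compared with those of Sol and Dia. Capitals mark matches, on either strand, to the motifs searched, which are described with their frequencies further on.
Sox6 region 24, chr7:115510190-115510389, plus strand: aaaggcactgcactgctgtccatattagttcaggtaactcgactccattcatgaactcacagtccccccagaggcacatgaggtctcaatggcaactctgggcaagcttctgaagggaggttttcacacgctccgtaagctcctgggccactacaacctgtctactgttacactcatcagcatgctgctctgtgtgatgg
Sox6 region 25, chr7:115477860-115478059, plus strand: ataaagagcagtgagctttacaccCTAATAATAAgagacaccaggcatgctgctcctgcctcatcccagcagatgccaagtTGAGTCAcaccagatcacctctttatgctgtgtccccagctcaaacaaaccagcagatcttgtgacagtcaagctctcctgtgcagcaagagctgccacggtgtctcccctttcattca
Prox1 region 2, chr1:190106612-190106811, plus strand: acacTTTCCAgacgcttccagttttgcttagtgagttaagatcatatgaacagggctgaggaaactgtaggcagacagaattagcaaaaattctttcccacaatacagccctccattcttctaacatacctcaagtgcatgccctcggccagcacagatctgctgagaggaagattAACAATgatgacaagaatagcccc
Prox1 region 3, chr1:190061985-190062184, plus strand: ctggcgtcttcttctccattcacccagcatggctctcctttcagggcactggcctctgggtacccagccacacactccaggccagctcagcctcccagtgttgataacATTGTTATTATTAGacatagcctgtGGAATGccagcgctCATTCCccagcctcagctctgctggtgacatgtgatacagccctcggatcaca
Tbx15 region 2, chr3:99253143-99253342, plus strand: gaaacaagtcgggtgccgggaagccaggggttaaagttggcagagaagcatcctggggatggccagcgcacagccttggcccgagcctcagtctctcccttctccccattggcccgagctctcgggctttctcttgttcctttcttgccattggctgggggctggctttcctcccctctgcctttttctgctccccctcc
Tbx15 region 6, chr3:99290308-99290507, plus strand: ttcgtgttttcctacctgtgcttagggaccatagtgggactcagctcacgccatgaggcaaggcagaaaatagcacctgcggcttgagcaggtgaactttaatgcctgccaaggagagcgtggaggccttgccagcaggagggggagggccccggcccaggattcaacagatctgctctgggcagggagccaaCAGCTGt
Tbx15 region 7, chr3:99292652-99292851, plus strand: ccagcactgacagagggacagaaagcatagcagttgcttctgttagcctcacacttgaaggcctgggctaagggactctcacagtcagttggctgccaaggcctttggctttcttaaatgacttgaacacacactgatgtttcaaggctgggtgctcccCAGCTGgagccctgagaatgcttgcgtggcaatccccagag
Tbx15 region 8, chr3:99294237-99294436, plus strand: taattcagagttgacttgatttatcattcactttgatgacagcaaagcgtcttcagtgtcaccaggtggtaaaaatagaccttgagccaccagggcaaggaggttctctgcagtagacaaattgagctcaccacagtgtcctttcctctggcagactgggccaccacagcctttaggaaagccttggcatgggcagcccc
Tbx15 region 9, chr3:99296213-99296412, plus strand: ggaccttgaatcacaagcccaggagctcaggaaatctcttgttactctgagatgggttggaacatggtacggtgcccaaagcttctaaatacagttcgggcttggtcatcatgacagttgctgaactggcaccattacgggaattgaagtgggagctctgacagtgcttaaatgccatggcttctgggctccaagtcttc
Of 6 RefSeq promoters of Sox6 and 2 of Prox1, the 1 beside the highest-scored promoter region of each gene is also shown, as the 200 bases upstream of its start, from RefSeq promoter records that matched GRCm38.p6.
Sox6 promoter, chr7:116031048-116031247, minus strand: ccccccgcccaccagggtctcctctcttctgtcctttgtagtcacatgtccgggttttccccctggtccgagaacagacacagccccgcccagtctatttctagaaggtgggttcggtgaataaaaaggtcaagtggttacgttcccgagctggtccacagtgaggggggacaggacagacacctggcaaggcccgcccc
Prox1 promoter, chr1:190170828-190171027, minus strand: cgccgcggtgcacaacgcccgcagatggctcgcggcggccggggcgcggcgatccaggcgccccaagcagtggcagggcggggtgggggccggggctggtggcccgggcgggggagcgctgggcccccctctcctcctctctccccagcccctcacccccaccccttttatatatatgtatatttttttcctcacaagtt

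The first comparison asked how many open regions each gene carried in each muscle. Sox6 had 14 peaks in EDL, 17 in Quad, 8 in Dia and 12 in Sol. Tbx15 had 10 peaks in EDL, 11 in Quad, 5 in Dia and 6 in Sol. Prox1 had 1 peak in EDL, 1 in Quad, 1 in Dia and 3 in Sol. Quad thus exceeded Sol at the 2 factors of the fast program, and Sol exceeded Quad at Prox1. Across all 16456 genes with a peak in Quad or Sol, 47.6% had more peaks in Quad and 13.0% had fewer, since the Quad list was the longer. The direction at Sox6 and Tbx15 was therefore the common one, whereas that at Prox1 was shared by 13.0% of genes and rested on 2 peaks.

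When each list was limited to its 20000 highest-scored peaks, Sox6 had 7 peaks in EDL, 4 in Quad, 8 in Dia and 6 in Sol. Tbx15 then had 6 peaks in EDL, 4 in Quad, 5 in Dia and 4 in Sol, and Prox1 had 2 in Sol and 1 in each other list. The excess of Quad over Sol was thus reversed at Sox6 and absent at Tbx15, and Prox1 stayed higher in Sol by 1 peak. At equal length, Quad exceeded Sol at 23.0% of 12866 genes and fell short of it at 23.3%.

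**Figure D1:**
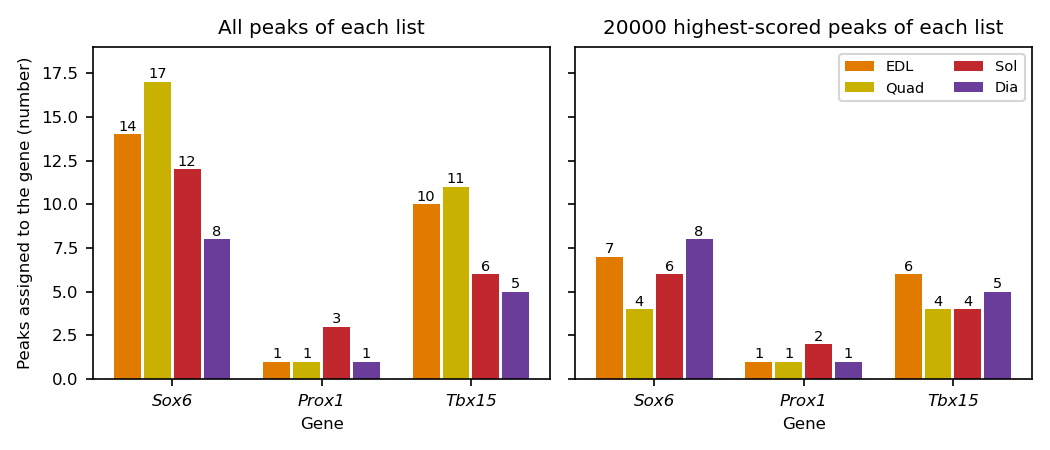
Number of peaks assigned to Sox6, Prox1 and Tbx15 in EDL, Quad, Sol and Dia, as bars from 0, with all peaks of each list on the left and the 20000 highest-scored peaks of each list on the right. Sox6 falls from 17 to 4 peaks in Quad and stays at 8 in Dia.

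Against other genes, Sox6 was among those with the most peaks. The shares are of the 17157 genes with a peak in any list, so genes without a peak in the muscle concerned are counted. Sox6 had more peaks than 99.8% of them in EDL, 99.7% in Quad, 99.6% in Dia and 99.6% in Sol. Tbx15 had more than 99.0% in EDL, 98.2% in Quad, 97.2% in Dia and 95.9% in Sol, while Prox1 had more than 80.5% in Sol and between 9.22% and 24.7% in the other lists. The 2 genes differ in length, as Sox6 spans 568 kb and Tbx15 114 kb. Per 100 kb of gene body, Tbx15 held 7.03 peaks in EDL, 7.03 in Quad, 4.39 in Dia and 5.27 in Sol. These densities were higher than those of 94.7% to 97.9% of 5007 protein-coding genes of at least 50 kb. Sox6 held 2.11 peaks per 100 kb in EDL, 2.64 in Quad, 1.23 in Dia and 1.76 in Sol, higher than in 64.3% to 71.3% of the same genes. No peak was centered inside the GENCODE gene body of Prox1, 52.7 kb long, in any list, although the promoter peaks reached into it and had their centers just beyond its 5′ end.

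Most of the Sox6 peaks were weak within their lists. A percentile is given here as the rank of a peak's score among all peaks of its own list, where 100 is the highest. The median percentile of the Sox6 peaks was 38.6 in EDL, 23.4 in Quad, 39.9 in Dia and 28.4 in Sol. The range of Sox6 percentiles ran from 1.54 to 91.5 in EDL, from 2.35 to 87.7 in Quad, from 8.04 to 62.1 in Dia and from 3.33 to 91.6 in Sol. For Tbx15 the medians were 48.9 in EDL, 34.4 in Quad, 26.5 in Dia and 32.0 in Sol. The highest Tbx15 percentile was 82.4 in EDL, 87.7 in Quad, 54.2 in Dia and 57.8 in Sol, so that the best Tbx15 peak of EDL and Quad ranked above that of Sol and Dia.

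Introns held most of the peaks at both long genes. At Sox6 they held 8 of 14 peaks in EDL, 11 of 17 in Quad, 5 of 8 in Dia and 7 of 12 in Sol. At Tbx15 they held 7 of 10 in EDL, 7 of 11 in Quad, 5 of 5 in Dia and 6 of 6 in Sol. Distances to the assigned TSS at Sox6 ranged from -70861 bp to 334639 bp, where negative values lie upstream, with a median absolute distance of 130201 bp in EDL, 185792 bp in Quad, 92690 bp in Dia and 60724 bp in Sol. More than 100 kb from the TSS lay 7 Sox6 peaks in EDL, 9 in Quad, 4 in Dia and 5 in Sol. At Tbx15 the median absolute distance was 45214 bp in EDL, 40609 bp in Quad, 42476 bp in Dia and 47338 bp in Sol.

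**Figure D2:**
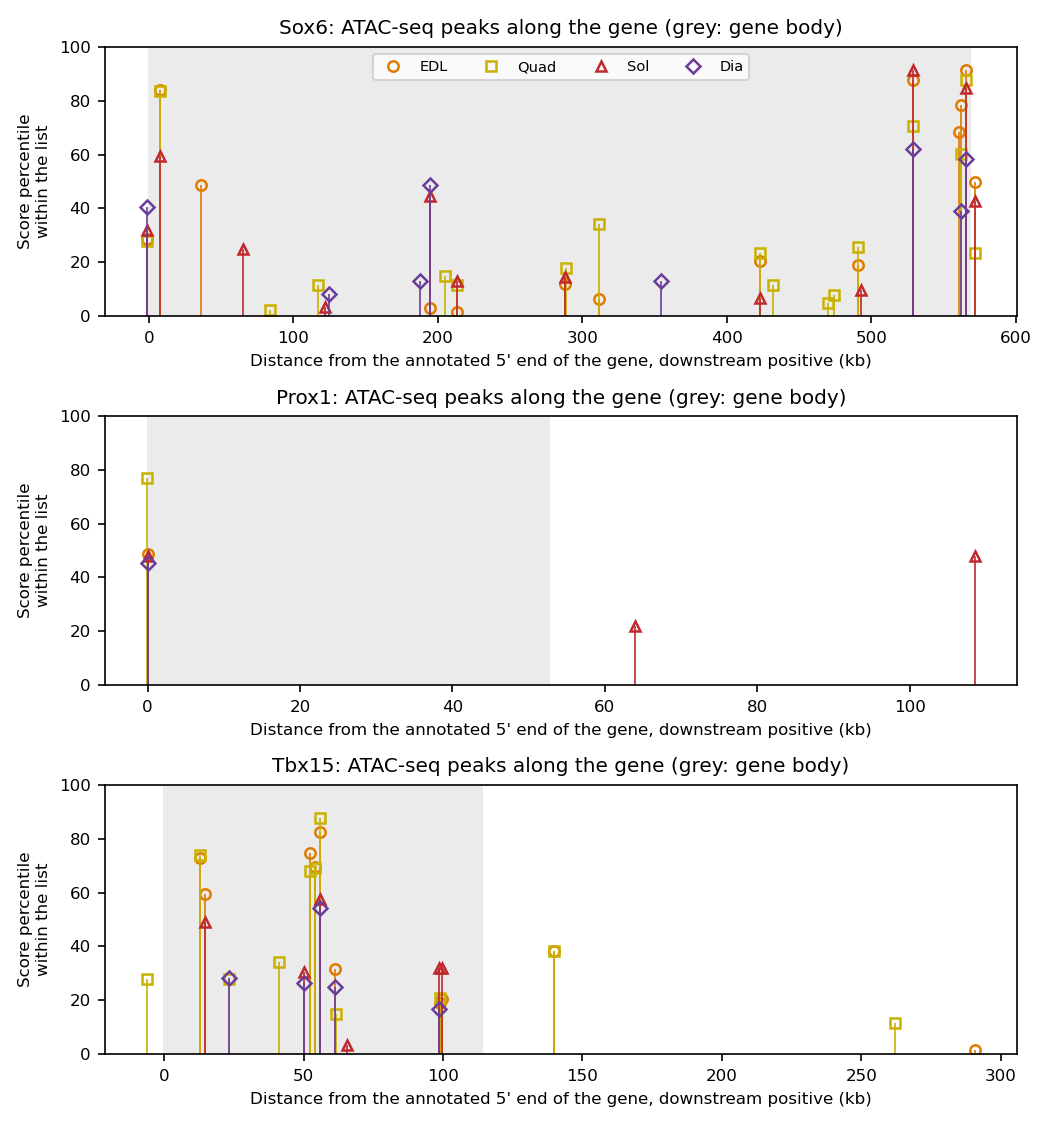
Score percentile of each peak within its own list against its distance in kb from the annotated 5′ end of the gene, for Sox6, Prox1 and Tbx15, with the gene body in gray and 1 symbol per muscle. The highest Sox6 peaks lie near the 3′ end of the gene and near an internal promoter, and the Tbx15 peaks crowd into its first intron.

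The second comparison asked which regions the muscles shared. Sox6 had 2 of its 28 regions open in all 4 lists, Prox1 had 1 of 3 and Tbx15 had 1 of 18. Together 4 of 49 regions, or 8.16%, were open in all 4, against 26.9% of all regions. All regions include promoter peaks, whereas the Sox6 and Tbx15 peaks lay mostly in introns. The sets were not matched for peak class or score, here or in the shares of regions given below. Regions listed in a single muscle made up 16 of 28 at Sox6, 2 of 3 at Prox1 and 7 of 18 at Tbx15, or 51.0% of the 49, against 42.6% of all regions.

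At Tbx15, 4 of 18 regions, or 22.2%, were open in both EDL and Quad and in neither Sol nor Dia, against 8.05% of all regions. Sox6 had 3 such regions of 28, or 10.7%, and Prox1 had none of 3. Regions open in EDL or Quad and in neither Sol nor Dia numbered 10 at Tbx15 (55.6%), 12 at Sox6 (42.9%) and 0 at Prox1, against 37.5% of all regions. The opposite class, open in Sol or Dia and in neither EDL nor Quad, held 2 regions at Tbx15 (11.1%), 7 at Sox6 (25%) and 2 at Prox1 (66.7%), against 14.4% of all regions.

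Pairs of lists gave a mixed picture at Tbx15. Quad and Sol had a single Tbx15 region in common, which was 9.09% of the Tbx15 regions of Quad and 16.7% of those of Sol. Over all regions, the shared part was 54.0% of Quad and 75.6% of Sol. EDL and Quad shared 5 Tbx15 regions, which were 50% of those of EDL and 45.5% of those of Quad, against 80.8% and 60.4% over all regions. Sol and Dia shared 3, which were 50% of those of Sol and 60% of those of Dia. EDL, however, shared 4 regions with Sol (40% of EDL, 66.7% of Sol) and 3 with Dia (30% of EDL, 60% of Dia). Quad shared 2 with Dia (18.2% of Quad, 40% of Dia). As a share of the union, EDL with Sol, at 33.3%, was close to EDL with Quad, at 31.2%. The value for EDL with Sol counts region 13, where the EDL and Sol peaks did not overlap and were joined only through the Dia peak. At Sox6, EDL and Quad shared 10 regions, which were 71.4% of those of EDL and 58.8% of those of Quad. Quad and Sol shared 7 Sox6 regions, which were 41.2% of those of Quad and 58.3% of those of Sol. Several missing overlaps were between peaks that lay close to each other. Tbx15 region 11, listed in Quad, ended up 32 bp from region 10 of EDL and Dia, and region 14 of Quad lay 95 bp from region 13 of EDL, Sol and Dia. Sox6 region 14 of Sol lay 193 bp from region 15 of EDL and Quad, and Sox6 region 2 of EDL lay 81 bp from region 1 of the other 3 lists. With peaks within 500 bp joined, 3 Sox6 regions and 2 Tbx15 regions were open in all 4 lists.

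**Figure D3:**
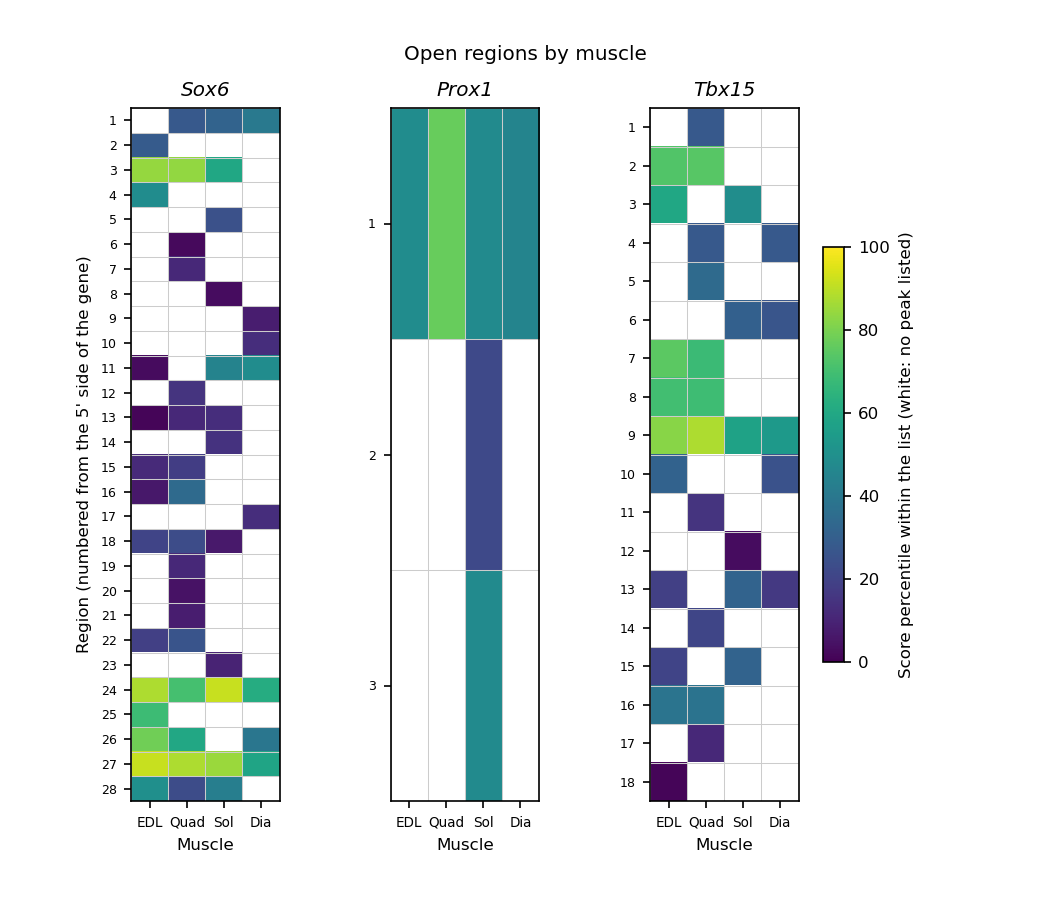
Score percentile within the list for the 28 Sox6, 3 Prox1 and 18 Tbx15 regions (rows, numbered from the 5′ side) in each muscle (columns), on a color scale from 0 to 100, with white where no peak was listed. Sox6 regions 24 and 27, Prox1 region 1 and Tbx15 region 9 have a peak in all 4 lists.

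At Tbx15, the promoter and 2 regions deep in intron 1 were listed in EDL and Quad and not in Sol or Dia. Region 2, the promoter region at chr3:99253148-99253378, lay just upstream of the TSS of transcript NM_009323. Its EDL peak was centered at -486 bp and its Quad peak at -518 bp from that TSS, while GENCODE starts the gene further upstream, at position 99240381. It scored 10 in EDL (95% counting interval 8.18 to 12.1) and 9.86 in Quad (7.78 to 12.3), at percentiles 72.9 and 74.0, and no peak was listed in Sol or Dia. Scores are the authors' tag counts scaled to library size, and the intervals come from the inferred number of tags and cover counting error only. Both values were well above the lowest score listed anywhere in Sol, 3.06, and in Dia, 3.63.

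Intron 1 regions 7 and 8, centered 38991 bp and 40576 bp downstream of the TSS in EDL, had the same pattern. Region 7, at chr3:99292647-99292855, scored 10.4 in EDL and 8.84 in Quad, at percentiles 74.9 and 68.2. Region 8, at chr3:99294232-99294463, scored 9.43 in EDL and 8.96 in Quad, at percentiles 69.6 and 69.0. The fourth region of this class, intergenic region 16, was weaker, at percentile 38.3 in EDL and 38.2 in Quad, and was centered 126349 bp downstream of the TSS in EDL. EDL and Quad therefore had similar scores at all 4 regions, and no peak of Sol or Dia overlapped them.

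Region 9, in the same intron at chr3:99296120-99296456, was open in all 4 lists. It scored 12.2 in EDL (10.2 to 14.5), 14.1 in Quad (11.6 to 17.0), 8.03 in Sol (6.40 to 9.94) and 7.96 in Dia (6.30 to 9.92). The counting intervals of EDL and Quad lay above those of Sol and Dia. Region 6, in contrast, was listed in Sol at a score of 5.54 and in Dia at 5.64, at percentiles 30.6 and 26.5, and lay 1949 bp upstream of region 7. Region 3, shortly downstream of the TSS, scored 7.99 in EDL and 7.07 in Sol, and region 4, 9792 bp downstream of the TSS in Quad, was listed in Quad and Dia, so that these regions nearer to the promoter did not divide the muscles in the same way. In the 20000 highest-scored peaks per list, 11 Tbx15 regions remained, of which 1 was open in all 4.

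At Sox6, the regions of highest mean percentile lay toward the 3′ end. Region 27, at chr7:115472981-115473213 in the 3′ UTR of exon 16, scored 16.4 in EDL (14.0 to 19), 14.1 in Quad (11.6 to 17.0), 13.1 in Sol (11 to 15.5) and 8.46 in Dia (6.75 to 10.5). Its percentiles were 91.5, 87.7, 84.8 and 58.4 in the same order. Dia had the lowest value, with an interval below the other 3, which overlapped. Region 26, in exon 16, was listed in EDL at percentile 78.4, in Quad at 60.1 and in Dia at 39.2, without a peak in Sol. Region 25, in intron 15 and 650 bp from region 26, was listed in EDL alone, with a score of 9.24 (7.48 to 11.3) and a percentile of 68.4.

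Region 24, at chr7:115510114-115510428 in intron 13, had another order of muscles. It scored 16.3 in Sol (14.0 to 19), 14.2 in EDL (12 to 16.7), 9.22 in Quad (7.21 to 11.6) and 8.96 in Dia (7.20 to 11). The values paired Sol with EDL and Quad with Dia, and the intervals of these pairs did not overlap. EDL and Quad thus lay on different sides.

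The 5′ part of Sox6 carried the second group of higher-scored peaks. Region 3, at chr7:116030810-116031229, lay at the start of transcript NM_001025560, inside the longest annotated gene. It scored 12.7 in EDL (10.6 to 15.1), 12.4 in Quad (10.1 to 15.2) and 8.22 in Sol (6.57 to 10.2), at percentiles 84.0, 83.6 and 59.4, and the nearest Dia peak lay 8974 bp away. The peaks did not coincide. Those of EDL and Quad were centered 133 bp and 94 bp downstream of this TSS and that of Sol at -79 bp, in the promoter printed above, and the EDL and Sol peaks were joined only through the Quad peak.

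Other Sox6 regions differed between muscles at mostly lower scores. Region 11, in intron 2, reached percentile 44.8 in Sol and 48.7 in Dia but 2.97 in EDL, with no Quad peak. The highest of the 7 regions without an EDL or Quad peak was region 5, in intron 1, at percentile 24.8 in Sol. Of the 3 regions shared by EDL and Quad alone, region 16, in intron 4, had the highest single percentile, 34.4 in Quad, with 6.46 in EDL. By mean percentile, region 22 ranked above it, at 22.3 against 20.5. Among regions listed in a single muscle, region 25 and region 4, at percentile 48.7 in EDL, were the 2 highest.

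Prox1 had an open promoter in all 4 muscles and distal peaks in Sol. Region 1, at chr1:190170609-190170865, scored 6.83 in EDL (5.33 to 8.62), 10.5 in Quad (8.35 to 13.0), 6.98 in Sol (5.47 to 8.77) and 7.05 in Dia (5.50 to 8.91). Its percentiles were 48.7, 76.9, 48.0 and 45.3. The peak was centered between 56 bp and 112 bp downstream of the TSS of NM_008937. Quad was the highest of the 4, with an interval that met those of the other lists. An antisense gene, Prox1os, overlaps this promoter, and ATAC-seq carries no strand, so the open chromatin cannot be given to either gene.

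Both other Prox1 regions were listed in Sol alone. Region 3, at chr1:190061981-190062187, was intergenic, 107431 bp downstream of the TSS and beyond the 3′ end of the gene, with a score of 6.98 (5.47 to 8.77) and a percentile of 48.0. The nearest peak of another list lay 91254 bp away. Region 2, 62804 bp downstream, scored 4.97 (3.71 to 6.52), at percentile 21.9, with the nearest peak of another list 63795 bp away. No EDL, Quad or Dia peak was thus near either region, and at region 3 the Sol score equaled the one at the promoter. Both were given to Prox1 by distance alone. The next protein-coding gene on that side, Smyd2, a lysine methyltransferase, lay 196 kb from Prox1, with its 5′ end facing Prox1. It had 6 peaks in EDL, 12 in Quad, 4 in Dia and 9 in Sol.

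The third comparison set the scores of Quad against those of Sol at the 9 member regions listed in both. Intervals of the ratio are at 95% and cover counting error only. Tbx15 region 9 was 1.76-fold higher in Quad (1.31 to 2.36), above the ratio of 97.5% of the 21764 regions that Quad and Sol shared. Sox6 region 3 had a ratio of 1.51 (1.12 to 2.04) and Prox1 region 1 a ratio of 1.5 (1.08 to 2.09). These ranked above 91.8% and 91.7% of shared regions. At Sox6 region 3 the Quad and Sol peaks overlapped only from position 116031023 to 116031047, so its ratio compares 2 mostly separate windows. Sox6 region 24 went the other way, with a ratio of 0.566 (0.422 to 0.747), and 1.19% of shared regions had a lower one.

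At least 1.5-fold higher in Quad were 3 of the 9 regions, against 8.50% of all shared regions, and at least 1.5-fold higher in Sol was 1 of 9, against 3.41%. The median ratio over all shared regions was 1.10. Centered on that median, Tbx15 region 9 alone stayed past 1.5-fold in Quad, and Sox6 regions 24 and 28 were past it in Sol, at 0.515 and 0.664. At the 5 remaining Sox6 regions the deposited scores gave ratios from 0.729 to 1.18, and each interval included 1. At Sox6 regions 13 and 18 the intervals, 0.595 to 1.54 and 0.738 to 1.88, still held a ratio of 1.5, whereas at Sox6 region 27 the upper bound was 1.39 and the lower 0.829.

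**Figure D4:**
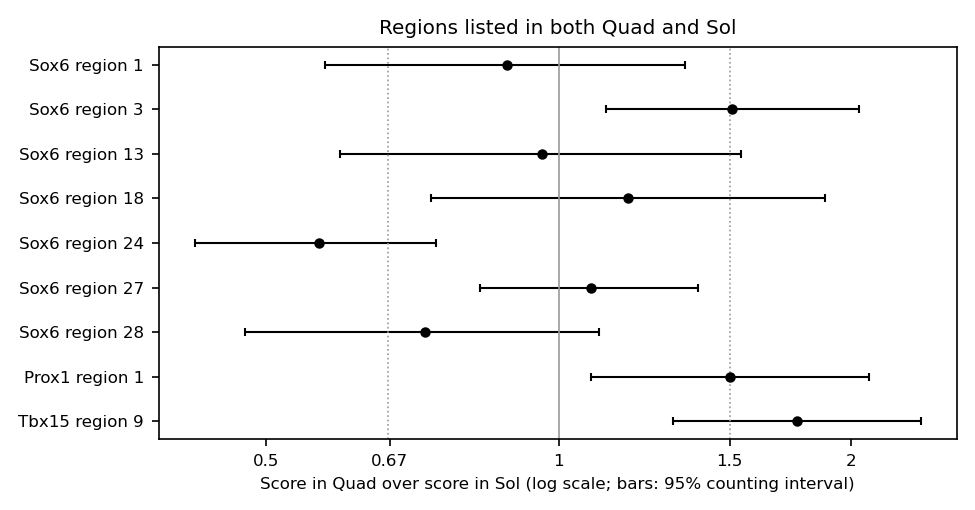
Score in Quad divided by score in Sol at the 9 regions listed in both muscles, on a log axis, with points for the ratio, bars for the 95% counting interval and dotted lines at 1.5-fold in each direction. Tbx15 region 9 lies to the right, at 1.76, and Sox6 region 24 to the left, at 0.566.

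Marker genes of cell types were checked in the same lists, because muscle tissue was profiled in bulk. In such tissue, fewer cells of a type and less open chromatin per cell cannot be told apart. Of 4 pan-muscle genes, 4 had a promoter peak in EDL, Quad and Dia and 3 in Sol. Of 4 fast-fiber genes, 1 had a promoter peak in EDL, 3 in Quad and none in Sol or Dia, and of 5 slow-fiber genes 1 had one in Sol and none elsewhere. Counting peaks of any class, the slow-fiber genes had 9 in Sol, 2 in EDL, 2 in Quad and 1 in Dia, so that Dia did not resemble Sol at these markers. The 4 lymphatic endothelial markers, cells that use Prox1, had 2 peaks in EDL, 8 in Quad, 1 in Dia and 2 in Sol. Promoter peaks stood at 2 of them in Quad, Lyve1 and Pdpn, and at none in the other lists, and Ccl21a had no peak in any list. With 20000 peaks per list, these markers had 1 peak in each list. Quad was also the list in which the Prox1 promoter scored highest, and the part of lymphatic cells in that value was not tested.

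Promoter peaks stood at 1 of the 4 fibroblast and fibro-adipogenic markers in EDL, 1 in Quad, 0 in Dia and 1 in Sol. Promoter peaks thus did not set EDL and Quad apart from Sol. Counting peaks of any class, the 4 markers had 11 in EDL, 14 in Quad, 2 in Dia and 10 in Sol. Among the 20000 highest-scored peaks they had 6 in EDL, 5 in Quad, 2 in Dia and 2 in Sol. EDL and Quad were thus the higher lists in sum, as they were at Tbx15 regions 2, 7 and 8. Most of this came from Col1a2, with 4 peaks in EDL, 3 in Quad, 1 in Dia and 0 in Sol. Col1a1 had 1 in EDL, 2 in Quad, 1 in Dia and 2 in Sol, Pdgfra had 1 in EDL alone and Dcn had 0. At this length the fast-fiber genes had 3 in EDL, 7 in Quad, 2 in Dia and 1 in Sol. The part of fibroblasts or of fast fibers in the Tbx15 values was not tested. Promoter peaks of the leukocyte, Schwann cell and satellite cell markers were absent from the 4 lists, tendon markers had 1, in Quad, and endothelial markers had 3 in EDL, 4 in Quad, 1 in Dia and 3 in Sol.

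Other regulators of fiber type were counted in the same way. The 6 fast-fiber regulators, among them the large Maf factors, had 30 peaks in EDL, 41 in Quad, 12 in Dia and 22 in Sol. Quad exceeded Sol at 4 of these genes and Sol exceeded Quad at 1, and with 20000 peaks per list the numbers were 3 and 1. Maf itself had 14 peaks in EDL, 21 in Quad, 4 in Dia and 9 in Sol. The 9 slow-fiber regulators, which include the coactivator gene Ppargc1a and the nuclear receptor gene Esrrg, had 73 peaks in EDL, 88 in Quad, 47 in Dia and 77 in Sol. Among them 5 had more peaks in Quad and 2 had more in Sol, and with 20000 peaks per list the numbers were 3 and 4.

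The 8 slow-program genes on the list of those that SOX6 represses had 4 peaks in EDL, 4 in Quad, 3 in Dia and 14 in Sol. Of these, 6 had more peaks in Sol than in Quad and 1 had fewer, against 13.0% and 47.6% of all genes. At 20000 peaks per list, the 6 genes stayed higher in Sol and none was higher in Quad. Myh7, the slow myosin heavy chain, had 2 peaks in Sol and none elsewhere, and Myl2 and Myl3, slow myosin light chains, had 3 peaks each in Sol and at most 1 in any other list. At the same list length, Sox6 itself had 4 peaks in Quad and 6 in Sol.

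**Figure D5:**
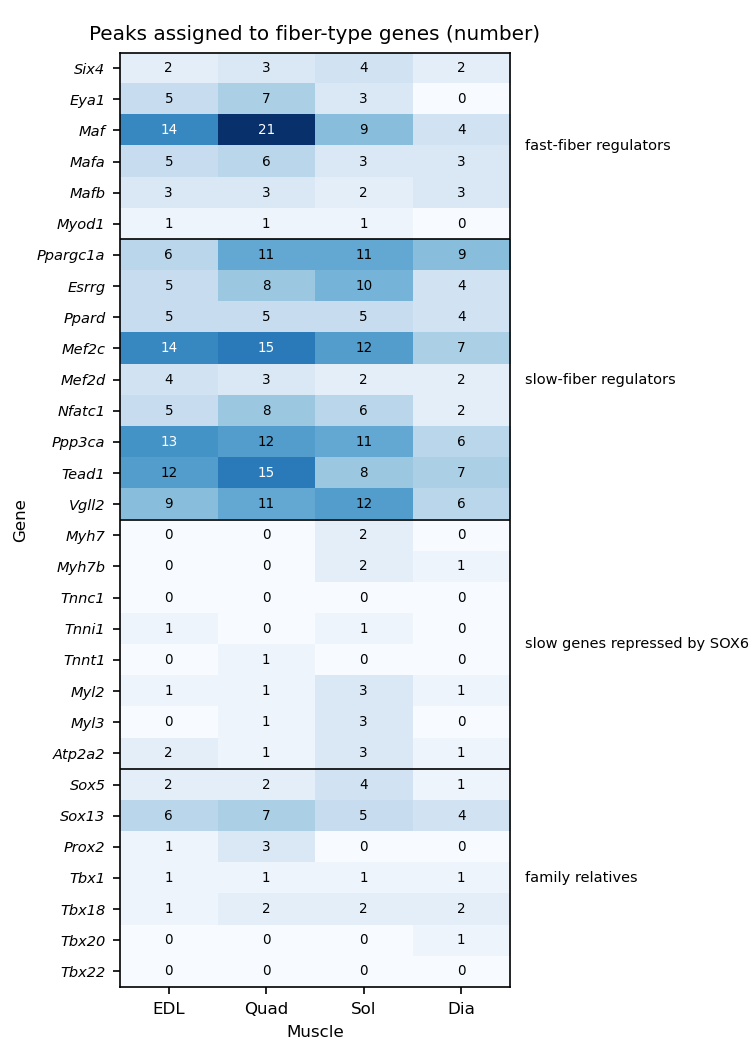
Number of peaks assigned to each gene (rows) in each muscle (columns) for 6 fast-fiber regulators, 9 slow-fiber regulators, 8 slow-program genes that SOX6 represses and 7 relatives of the 3 factors, with darker blue for more peaks. The slow-program genes hold most of their peaks in Sol.

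Relatives of the 3 factors each had fewer peaks than Sox6 and Tbx15 in every list. Sox5 and Sox13, which share the SOXD group with Sox6, had 2 and 6 peaks in EDL, 2 and 7 in Quad, 1 and 4 in Dia, and 4 and 5 in Sol. Prox2, the paralog of Prox1, had 1 peak in EDL, 3 in Quad and none in Sol or Dia. The T-box genes Tbx1, Tbx18, Tbx20 and Tbx22 had between 0 and 2 peaks in each list. All 7 relatives together had 11 peaks in EDL, 15 in Quad, 9 in Dia and 12 in Sol.

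Likeness was measured as the Euclidean distance between the peak numbers of 2 genes over the 4 muscles, with ties ordered by summed score. The genes most like Sox6 were Mef2c, with 14 peaks in EDL, 15 in Quad, 7 in Dia and 12 in Sol, then Eepd1 and Pdlim5, each at a distance of 2.24. Tns1 and Fto were nearest to Tbx15, at a distance of 1, followed by Adamts5 at 1.41. Prox1 had the same 4 numbers as 22 other genes, led by 4930539M17Rik, Arfgef1 and Frmd5. Of the neighboring genes, Wars2 beside Tbx15 had 1 peak in EDL, 2 in Quad, 1 in Dia and 1 in Sol. Insc and 1110004F10Rik beside Sox6 had at most 1 peak in any list. These numbers follow the nearest TSS in the deposited annotation. In GENCODE, Sox6 regions 1 and 2 lay inside 1110004F10Rik, close to its start, and Tbx15 region 1 lay inside Wars2.

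Short motifs were searched in the 200 bp around the center of the best-scored peak of each of the 49 regions, on both strands. The MEF2 motif (CTA, then 4 bases that are A or T, then TAA or TAG) was found in 2 regions (4.08%, against 3.78% of 53857 regions), the NFAT core TGGAAA in 10 (20.4% against 18.1%) and the TEAD core GGAATG in 7 (14.3% against 12.1%). The E-box CAGCTG was found in 7 (14.3% against 20.1%), the AP-1 motif TGACTCA in 1 (2.04% against 7.36%) and the SOX core AACAAT in 7 (14.3% against 6.20%). The ERR motif TCAAGGTCA and the T-box motif AGGTGTGA had no match in these windows, against 0.388% and 0.535% of all regions.

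The regions with a MEF2 match were Sox6 region 25, listed in EDL, and Prox1 region 3, listed in Sol. In Prox1 region 3 the MEF2 match shared letters with a SOX core, and TEAD cores lay beside them, as the capitals above show. Prox1 region 2 held an NFAT and a SOX core. Of the 7 regions with a SOX core, 4 were at Sox6, 2 at Prox1 and 1 at Tbx15. Tbx15 regions 6 and 7 each held an E-box, and Tbx15 regions 2, 8 and 9 and Sox6 region 24 held none of the 8 motifs. Both promoters printed above held none, and of the 5 other Sox6 promoters 4 held a match, to NFAT, TEAD, the E-box or MEF2. A match describes these letters and is not a site of binding. The GC content of the windows had a median of 49.8% at Sox6, 51.0% at Prox1 and 47.2% at Tbx15, against 53.0% over all regions.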

How the data were processed

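ATAC-seq peaks of EDL, Quad, Sol and Dia (1 pooled library each) were used. Per the labels and methods, the authors transposed nuclei from 30 mg of powdered frozen muscle, sequenced 42-bp read pairs, aligned them to mm10 with Bowtie2 2.2.6 and called peaks in each library with HOMER, keeping 1 tag per position. The deposited score is a signal per peak, the tag count scaled to library size, and the deposited distance and gene are those of the nearest TSS. Bowtie2 can place repeat reads at any of several positions. Handling of the Tn5 offset and of mitochondrial reads is not given in the sources used here.

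Tags were inferred from the score steps (scores under 10 were whole multiples of 1 step within a tolerance of 0.0051), assuming scaling to 10 M tags. The depth came to 78.1 M tags in Quad, 99.3 M in Dia, 104 M in EDL and 105 M in Sol, with 25 to 36 tags in the lowest peak. Peak widths were 208 bp in EDL, 188 bp in Quad, up to 206 bp in Sol and 232 bp in Dia. Gene bodies came from GENCODE vM21 on GRCm38.p6. RefSeq promoter records were found for Sox6 and Prox1. Counting intervals were 95% exact. Regions named are each gene's promoter, its highest-ranked region of each sharing class and those with the largest Quad to Sol differences, with lists and motifs by function. Neighbors and the 3 most alike genes complete the rule. A further listed regulator is not reported here. Regions outside it (Sox6 regions 4, 11, 26 and 28, Tbx15 regions 3, 4, 8 and 16, Prox1 region 2 and the close pairs) were chosen after their values were seen. Members, lists and motifs were chosen with earlier results of these data known. Code was tested on simulated data and run with Python 3.11.15, pandas 2.3.3 and scipy 1.17.1.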

Additional observations from a re-analysis of the deposited data

How the results depend on the processing

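No paired analysis was possible because a single library represents each muscle, and no replicate could be left out for the same reason. With all peaks, numbers at Sox6 and Tbx15 followed the length of the list, and those at Prox1 did not. With 20000 peaks per list, Sox6 had 7, 4, 6 and 8 peaks and Tbx15 had 6, 4, 4 and 5 in the order EDL, Quad, Sol, Dia, and Quad minus Sol was -2 at Sox6, -1 at Prox1 and 0 at Tbx15. In the upper 50% of each list, Sox6 had 5, 4, 3 and 2 peaks, Tbx15 had 5, 4, 1 and 1, and Prox1 had 0, 1, 0 and 0, so that Quad minus Sol was 1 at Sox6, 1 at Prox1 and 3 at Tbx15, and Prox1 had 0 regions open in all 4 lists. Prox1 thus reversed there, where its Sol peaks at percentile 48.0 drop out by construction. Within 50 kb of the TSS, Sox6 had 5, 5, 5 and 3 peaks, Prox1 had 1 in Sol, and Tbx15 had 6, 8, 3 and 4. Quad minus Sol was then 0 at Sox6 and 0 at Prox1, and stayed at 5 at Tbx15. Counted in the gene body and 10 kb around it, Prox1 had 1 peak in Sol and Quad minus Sol was 0 at Prox1 and 3 at Tbx15. Joining peaks within 500 bp gave 2 Tbx15 regions open in all 4. After centering on the median ratio, regions at least 1.5-fold higher numbered 1 in Quad and 2 in Sol. A common score limit of 3.63 could move no count, because the lowest-scored member peaks were at 3.75. Scores per base pair of peak width, chosen after seeing the data, raised every ratio by the same factor. The counts of regions past 1.5-fold stayed the same under it. Reciprocal overlap of 50% and whole-region motif windows moved no count past 1.5 times. Region 28 of Sox6 and regions under about 50 tags have wide counting intervals.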
